A study of Homo sapiens with 24 samples.

Results

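The genes described here form the core of the PI3K-AKT-mTOR pathway: PIK3CA, AKT1, AKT2, MTOR, RPTOR, RICTOR, TSC1 and TSC2. The members were all array probes annotated to these 8 symbols, which gave 13 probes of 7 genes among the 47231 probes of the array. PIK3CA, which has no probe named for it in the annotation used, was not analysed here. The gene set was chosen by measured values, namely the low AKT1 levels under 1 siRNA and the low MTOR levels under another, so AKT1 and MTOR are described without a test, and tests are given for TSC1, TSC2 and RPTOR.

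The cells were HB2, an immortalized line of human mammary epithelial cells, transfected for 48 h with 50 nM siRNA using the lipid reagent DharmaFECT 3. The control group received a control siRNA. GNG12-AS1, a long noncoding RNA, was targeted in the other 3 groups, through its exon 1, its exon 7 and its exon 9. All 4 groups shared the cell line, the reagent and the dose, and each held 6 biological replicates, 1 array each. Total RNA was read as biotin-labelled cRNA on Illumina bead arrays, and values are normalized log2 intensities. The number in the sample titles ties 1 array of each group to the same numbered experiment. The 3 comparisons with control use the same 6 control arrays.

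In this pathway PI3K makes a membrane lipid that recruits the kinase AKT, which is then activated by phosphorylation. AKT blocks the TSC1-TSC2 complex, a brake on the small GTPase RHEB, and RHEB switches on the MTOR kinase in the complex mTORC1, which contains RPTOR and promotes protein synthesis and growth. A separate complex, mTORC2, contains RICTOR and phosphorylates AKT. AKT also holds FOXO transcription factors out of the nucleus. Most of this control acts on proteins, which the arrays did not measure.

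A probe was kept if it lay above background on at least 6 of the 24 arrays, where background was the level of 437 probes of olfactory receptor genes. This left 19372 probes, 10 of them from 5 members (AKT1, MTOR, RPTOR, TSC1 and TSC2), and 7 of these 10 were above background on all 24 arrays. Raw array medians ran from 7.41 to 7.74, and between 34.2% and 39.5% of probes per array were above background. The second principal component, with 13.4% of the variance, ran with the position of an array in the deposited table, where the first 12 and the last 12 columns each hold 3 arrays of every group. The component spanned -4.19 to 22.8 over the first 12 columns and -27.4 to -0.39 over the last 12. Of 8 measured epithelial markers 7 were above background on all 24 arrays and KRT14 was on none. THY1 among 8 fibroblast markers, and CD14, CD68 and HLA-DRA among 7 immune markers, were also above background on all arrays. The immune markers PTPRC, CD3E and LYZ were on none, and ITGAM was on 5. Among fibroblast markers COL1A1 was above background on 16 arrays, COL1A2 on 15, DCN on 8, LUM on 4 and COL3A1 on 1. PDGFRA and PDGFRB were on none. No marker of 5 endothelial or 5 adipocyte markers was on all, though LEP was on 21 and the others on at most 6. No probe was named GNG12-AS1, so its knockdown was not checked. The arrays give RNA of the whole culture, in which fewer cells expressing a gene and less RNA per cell cannot be told apart.

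AKT1, the most studied of the AKT kinases, was lower on every array of the exon 7 siRNA than on any array of the other 3 groups, on both of its kept probes. The first probe (ILMN_2410909) read 11.34, 11.44 and 11.67 as the lowest, median and highest of the 6 control arrays. Under the exon 1 siRNA these were 11.36, 11.51 and 11.59, and under the exon 9 siRNA 11.22, 11.33 and 11.48. Under the exon 7 siRNA they were 9.90, 10.42 and 11.01. The control, exon 1 and exon 9 groups overlapped one another, and the exon 7 group overlapped none of them.

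The group means of this AKT1 probe in descending order were 11.50 ± 0.09 (SD, n = 6) for exon 1, 11.47 ± 0.13 for control, 11.35 ± 0.10 for exon 9 and 10.50 ± 0.40 for exon 7. Exon 1 was above exon 9 by 0.15, and all 6 exon 1 arrays lay above the exon 9 mean, though these groups overlapped. The SE values given next come from a fit that pools the spread of all 4 groups, exon 7 included. The exon 7 mean was 1.96-fold below control, a log2 difference of -0.97 ± 0.12 (SE), and the differences under exon 1 and exon 9 were 0.04 ± 0.12 and -0.11 ± 0.12. Among all 19372 kept probes ordered by their fall under the exon 7 siRNA, this one ranked 4. Groups that do not overlap occurred for 1.49% of kept probes between exon 7 and control, for 4.06% between exon 1 and exon 7 and for 2.53% between exon 7 and exon 9. Nothing is read from these shares for AKT1, since its values under the exon 7 siRNA chose it.

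The second AKT1 probe (ILMN_2388507) gave nearly the same picture. Its lowest, median and highest values were 10.92, 11.10 and 11.38 in control, 10.84, 11.23 and 11.31 under exon 1, and 10.93, 11.15 and 11.27 under exon 9. Under exon 7 they were 9.58, 10.15 and 10.63, again below every other array. Its mean under exon 7 was 1.93-fold below control, a log2 difference of -0.95 ± 0.13 (SE) that ranked 6. Under exon 1 and exon 9 it was above control by 0.04 ± 0.13 and 0.01 ± 0.13. Both probes measure AKT1 in the same RNA, and they correlated across the 24 arrays with r = 0.97. The remaining AKT1 probe (ILMN_1748661) was above background on 1 control array and on no other, so it gives no level to compare.

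The size of the AKT1 difference varied between experiments. Set against the control array of the same experiment, the first probe differed under exon 7 by -1.003 in experiment 1, by -1.44 in experiment 3 and by -0.91 in experiment 5. In experiments 7, 9 and 11 it differed by -0.52, -1.13 and -0.81. The second probe was below control in all 6 experiments too, by between -1.55 in experiment 3 and -0.75 in experiment 7. The SD of the exon 7 arrays, 0.40, was wider than that of the other 3 groups on the first probe. The difference was -0.76 among the first 12 columns of the table and -1.18 among the last 12 for the first probe, and -0.72 and -1.18 for the second. Without the arrays of experiment 3 it was -0.88 and -0.83. In experiments 1 and 7 the exon 7 array was among the first 12 columns and its control among the last 12. In experiments 3 and 9 this was reversed, and in experiments 5 and 11 both arrays lay in the same part of the table. The spread between experiments thus cannot be told apart from the table columns.

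MTOR, the kinase shared by mTORC1 and mTORC2, was lower on every exon 9 array than on any other array. On its single probe (ILMN_1769031) the lowest, median and highest values were 9.76, 10.05 and 10.24 in control. They were 9.77, 9.94 and 10.25 under exon 1 and 9.62, 9.99 and 10.26 under exon 7. Under exon 9 they were 8.84, 9.09 and 9.49. Control, exon 1 and exon 7 covered nearly the same range, and the exon 9 arrays lay below it.

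The MTOR means were 10.04 ± 0.17 (SD, n = 6) in control, 9.97 ± 0.21 under exon 7, 9.97 ± 0.19 under exon 1 and 9.15 ± 0.23 under exon 9. The exon 9 mean was 1.86-fold below control, a log2 difference of -0.89 ± 0.12 (SE), and it ranked 15 among all kept probes by their fall under that siRNA. The differences under exon 1 and exon 7 were -0.08 ± 0.12 and -0.07 ± 0.12. Groups that do not overlap made up 2.28% of kept probes between exon 9 and control and 3.51% between exon 1 and exon 9, and as for AKT1 nothing is read from these shares. Within experiments 1, 3 and 5 the exon 9 array differed from its control by -1.32, -1.16 and -0.63, and within experiments 7, 9 and 11 by -0.41, -0.96 and -0.88. It was thus lower in all 6. The first 12 columns gave -0.76 and the last 12 gave -1.02.

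**Figure D1:**
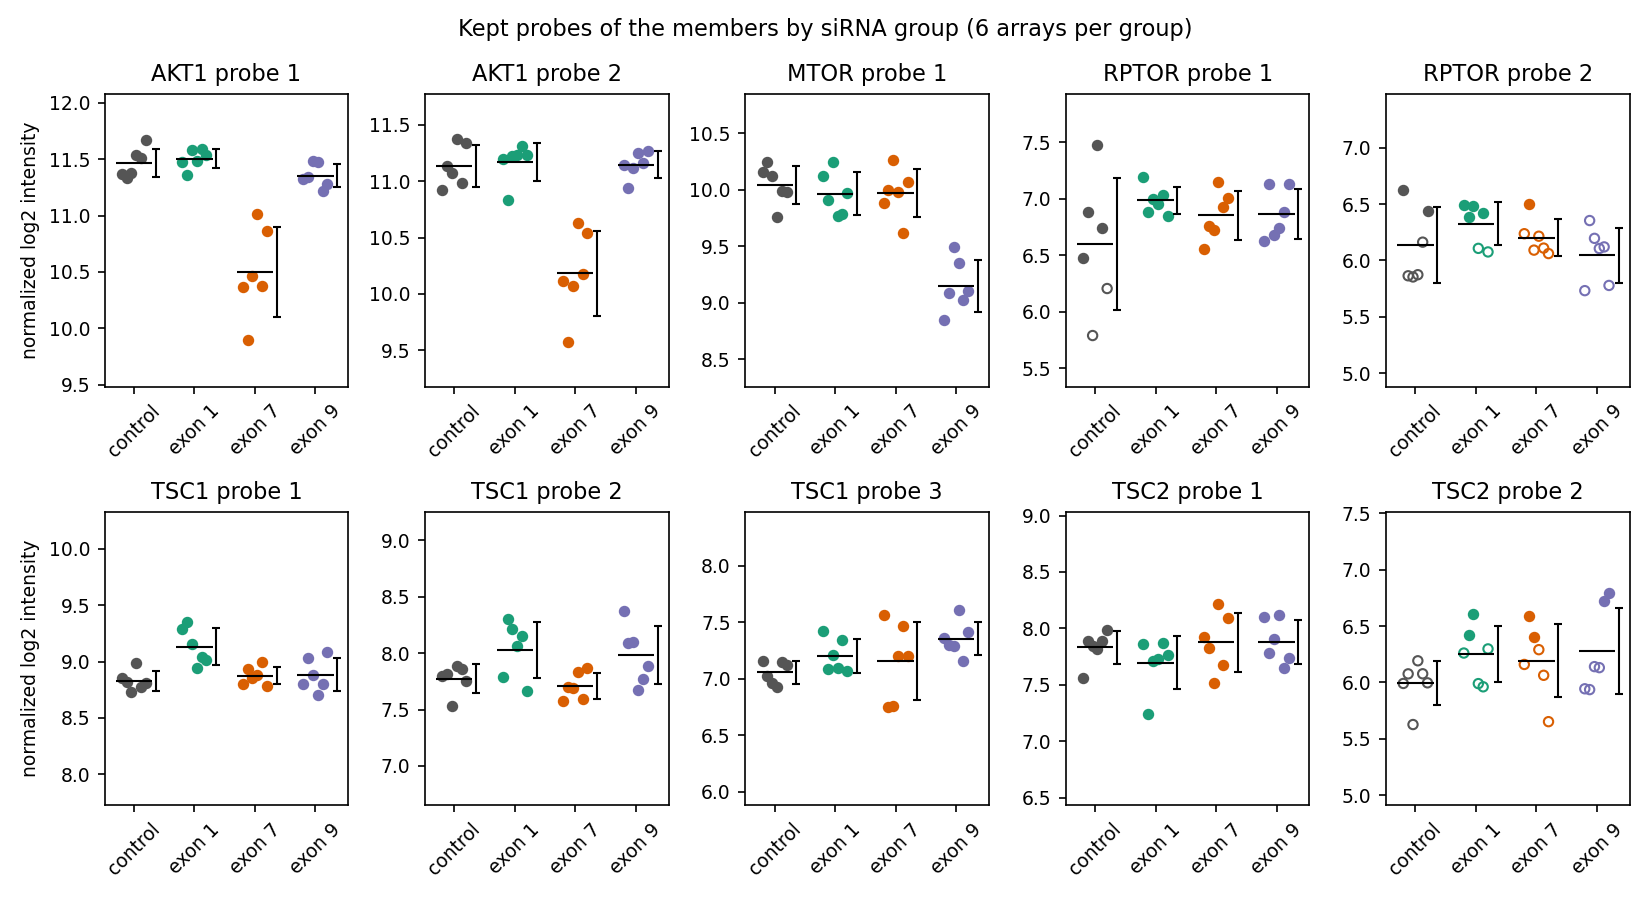
Normalized log2 intensity (y axis, of equal height in every panel) of the 10 kept probes of the pathway members in the 4 siRNA groups (x axis), with 1 point per array, filled where above background and open where not, in order of experiment number. Black lines are group means and bars beside them 1 SD (n = 6); the exon 7 points of both AKT1 probes and the exon 9 points of MTOR lie below all other arrays.

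AKT1 under the exon 9 siRNA and MTOR under the exon 7 siRNA both overlapped control. The SD pooled within groups was 0.22 and 0.23 for the AKT1 probes and 0.20 for MTOR, against a median of 0.23 over all kept probes.

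TSC1, also called hamartin, stabilizes TSC2 in the complex that restrains mTORC1, and its brightest probe rose under the exon 1 siRNA. This probe (ILMN_2246510) read 8.73, 8.81 and 8.99 as the lowest, median and highest of the control arrays and 8.95, 9.10 and 9.35 under exon 1. It read 8.79, 8.87 and 8.99 under exon 7 and 8.70, 8.84 and 9.08 under exon 9. The exon 1 arrays all lay above the control mean but overlapped the control range.

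The rise of TSC1 was 0.31 ± 0.08 on the log2 scale (SE, 95% interval 0.14 to 0.47), or 1.24-fold, with a limma adjusted p of 0.0192. It was the 1 call among 21 comparisons with control of the 7 kept probes of TSC1, TSC2 and RPTOR, of which 4 had an unadjusted p below 0.05. Such a p was held by 22.2%, 11.3% and 14.9% of all genes under exons 1, 7 and 9. Over all kept probes 6.97% were called under exon 1, 1.18% under exon 7 and 2.34% under exon 9, so 1 call in 21 is near the background. Under exon 7 and exon 9 the probe differed from control by 0.05 (interval -0.12 to 0.21, adjusted p = 0.939) and 0.05 (interval -0.11 to 0.22, adjusted p = 0.878). Compared directly, exon 1 was above exon 7 by 0.26 ± 0.08 (adjusted p = 0.0475, with 7.94% of kept probes called) and above exon 9 by 0.25 ± 0.08 (adjusted p = 0.0683, with 5.53% called). The last of these passed with the replicate number in the fit, at an adjusted p of 0.0467. It also passed with a stricter detection filter, with 1 probe per gene and with replicate number and table columns together (adjusted p = 0.0335, 0.0459 and 0.0381).

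The TSC1 call against control missed the threshold without exon 1 replicate 1 (0.27, adjusted p = 0.0574), without exon 1 replicate 2 (0.26, adjusted p = 0.0597), under median scaling (adjusted p = 0.0660) and in a fit of these groups alone (adjusted p = 0.0728). It also missed it among the first 12 columns alone (0.36, adjusted p = 0.155), among the last 12 alone (0.25, adjusted p = 0.474) and without experiment 3 (0.26, adjusted p = 0.0886). The call of exon 1 over exon 7 missed it when any of exon 1 replicates 1, 2 and 6 or of exon 7 replicates 1, 2, 3, 5 and 6 was left out, with differences of 0.21 to 0.27 and adjusted p from 0.0595 to 0.132. It also missed it with no detection filter (adjusted p = 0.0822), in a fit of these groups alone (adjusted p = 0.112), among the first or last 12 columns (adjusted p = 0.150 and 0.648) and without experiment 3 (adjusted p = 0.149). Exon 1 over exon 9 passed without exon 1 replicate 3 (0.29, adjusted p = 0.0334) and without exon 9 replicate 2 or 5 (0.28 and 0.29, adjusted p = 0.0487 and 0.0402).

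The other TSC1 probes leaned the same way under exon 1 without passing the test. The second (ILMN_1797367) had medians of 7.81 in control, 8.11 under exon 1, 7.70 under exon 7 and 7.99 under exon 9, and differed from control under exon 1 by 0.26 ± 0.11 (adjusted p = 0.211). It differed between exon 1 and exon 7 by 0.32 ± 0.11 (adjusted p = 0.0906), which passed without exon 1 replicate 5 (0.39, adjusted p = 0.0320) and under median scaling (0.40, adjusted p = 0.0490). The third (ILMN_1758378) had medians of 7.07, 7.15, 7.20 and 7.33 in the same order. Its largest difference was under exon 9, at 0.30 ± 0.12 (adjusted p = 0.251, and 0.0427 with replicate number and table columns together in the fit). Both were above background on all 24 arrays. The first and second probes were thus highest under exon 1 and the remaining one under exon 9.

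TSC2, or tuberin, carries the part of the complex that acts on RHEB, and no difference of it was called. Its brighter probe (ILMN_1714216) had a lowest, median and highest value of 7.56, 7.87 and 7.99 in control, 7.24, 7.75 and 7.87 under exon 1, 7.51, 7.87 and 8.22 under exon 7, and 7.65, 7.84 and 8.12 under exon 9. All 4 groups overlapped. The log2 differences were -0.13 (interval -0.38 to 0.12, adjusted p = 0.620), 0.04 (interval -0.21 to 0.29, adjusted p = 0.970) and 0.05 (interval -0.20 to 0.30, adjusted p = 0.942) for exons 1, 7 and 9. With 6 arrays a group, changes within these intervals were not excluded. The intervals are not adjusted for the number of probes tested, so their ends are not the smallest change that would have been called. The dimmer probe (ILMN_1762631) was above background on none of the control arrays and on 2 arrays of each other group, and is not read further.

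RPTOR, the scaffold that brings substrates to mTORC1, was near background. Its brighter probe (ILMN_1797816) was above background on 4 of 6 control arrays and on all 6 of each other group. The control arrays ran from 5.79 over a median of 6.61 to 7.48, a wider spread (SD 0.58) than under exon 1 (6.85, 6.98 and 7.19), exon 7 (6.56, 6.84 and 7.15) or exon 9 (6.63, 6.81 and 7.13). The 3 siRNA groups all lay within the control range.

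RPTOR under exon 1 differed from control by 0.39 ± 0.18 (adjusted p = 0.243), under exon 7 by 0.26 ± 0.18 (adjusted p = 0.741) and under exon 9 by 0.27 ± 0.18 (adjusted p = 0.614). Without control replicate 3, the highest control array, the exon 1 difference was 0.57 with an adjusted p of 0.0284, and over all single arrays left out it ran from 0.23 to 0.57. The dimmer RPTOR probe (ILMN_1793514) was above background on 2, 4, 1 and 0 arrays of control, exon 1, exon 7 and exon 9. AKT2 and RICTOR, with 1 probe each, were above background on none of the 24 arrays, so these data hold no level for the second AKT kinase or the defining subunit of mTORC2.

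**Figure D2:**
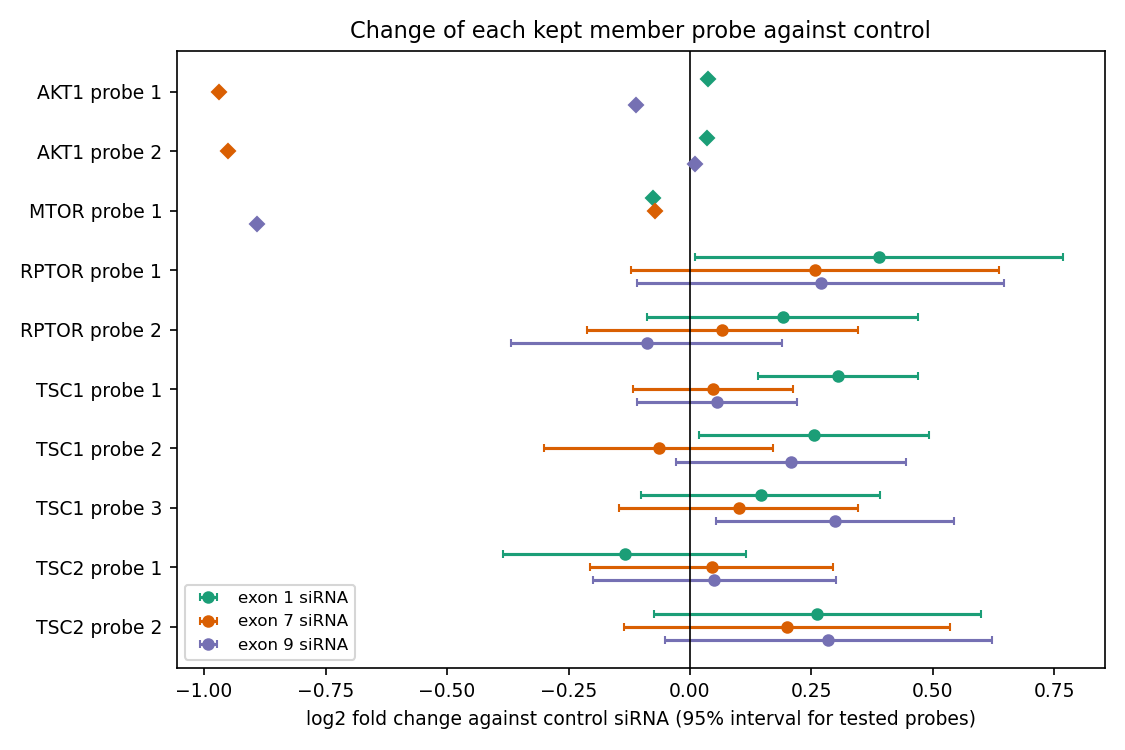
Log2 fold change against control siRNA (x axis) of each kept member probe (y axis) under the 3 siRNAs. Circles are tested probes of RPTOR, TSC1 and TSC2 with the 95% interval of the linear model fitted over 24 arrays, and their centres run from -0.13 to 0.39; diamonds are AKT1 and MTOR, chosen for their values and drawn without an interval, at -0.97 and -0.95 (AKT1, exon 7) and -0.89 (MTOR, exon 9).

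Genes around the members were described through 13 lists of the pathway's inputs, regulators, substrates and target genes, with 156 distinct genes, of which 133 had a kept probe. Each gene was read from its brightest kept probe. Under the exon 1 siRNA 10 of the 133 rose and 6 fell, which is 12% against 8.42% of all 11006 genes (4.32% higher and 4.1% lower). Under exon 7, 2 rose and none fell, and 1.5% stands against 1.51% of all genes (0.909% higher and 0.6% lower). Under exon 9, 2 rose and 3 fell, and 3.76% stands against 2.94% (1.61% higher and 1.34% lower). The median log2 difference of the 133 genes was 0.04, 0.01 and -0.004 under exons 1, 7 and 9, against 0.006, -0.003 and -0.0003 over all genes. Other settings moved the counts of rises and falls both ways. Under exon 1, no background correction and the authors' values each gave 12 rises and 6 falls. There 1 probe per gene gave 13 and 6, and the column block 11 and 6. Replicate number and table columns together gave 21 and 12 under exon 1. That fit gave 9 and 3 under exon 7 and 10 and 8 under exon 9. Under exon 1, median scaling and a fit of the groups alone each gave 5 rises and 4 falls, no detection filter gave 5 and 6, and leaving out experiment 3 gave 4 and 3. Under exon 9, median scaling and the groups alone each gave 1 and 0, no detection filter gave 1 and 1, and leaving out experiment 3 gave 2 and 0. Under exon 7, median scaling, the groups alone and no detection filter each gave 1 rise, while 1 probe per gene, the stricter detection filter and the column block each gave 4. With the replicate number in the fit the counts were 19 and 10 under exon 1, 5 and 0 under exon 7, and 5 and 5 under exon 9, while over all probes the calls went from 1350 to 2462, from 228 to 585 and from 454 to 1118.

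The upstream receptors and adaptors held 7 kept genes, and 1 was called. EGFR, the epidermal growth factor receptor, rose under exon 7 by 0.60 ± 0.09 (adjusted p = 0.000206). Its arrays read 10.02, 10.14 and 10.40 in control and 10.47, 10.78 and 11.09 under exon 7, with no overlap. EGFR under exon 7 was also above exon 1 by 0.56 ± 0.09 (adjusted p = 0.000158) and above exon 9 by 0.40 ± 0.09 (adjusted p = 0.0101, with 2.68% of kept probes called). A second EGFR probe gave 0.22 ± 0.09 (adjusted p = 0.333), so the probes differ in size. Under exon 7, 6 of the 7 genes lay above 0 with a median of 0.13, against 49.1% of all genes above 0. Under exon 1 it was also 6 (median 0.05) and under exon 9 it was 4 (median 0.12), against 51.1% and 49.9% of all genes. Only 1 of the 7 had an unadjusted p below 0.05 under exon 7.

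Of the other PI3K subunits 3 were kept. PIK3CB, a catalytic subunit that can make the same lipid as PIK3CA, fell by 0.67 ± 0.13 under exon 1 (adjusted p = 0.00154), from a control median of 8.38 to 7.74. It was lower under exon 1 than under exon 7 by -0.65 ± 0.13 (adjusted p = 0.00201) and than under exon 9 by -0.61 ± 0.13 (adjusted p = 0.00468). PIK3R1, the main regulatory subunit, differed under exon 1 by 0.38 (adjusted p = 0.191, and 0.0269 with the replicate number in the fit).

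Of 9 kept phosphatases that act on the PI3K lipid or on AKT 1 was called. INPP4B, which removes a phosphate from a lipid made downstream of PI3K, fell under exon 9 by 0.42 ± 0.10 (adjusted p = 0.0268), with 9.16, 9.33 and 9.55 in control and 8.66, 8.95 and 9.12 under exon 9. It was lower there than under exon 7 by 0.54 ± 0.10 (adjusted p = 0.00362). Under exon 1 it differed by -0.29 (adjusted p = 0.0976, and 0.0218 with the replicate number in the fit). PHLPP2, which dephosphorylates AKT, differed under exon 1 by 0.56 (adjusted p = 0.130, and 0.000794 in that fit), and its relative PHLPP1 by -0.40 (adjusted p = 0.363 and 0.0438).

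The relatives and activators of AKT, with 3 kept genes, held the largest single difference of the 13 lists. SGK1, a kinase related to AKT that responds to serum and glucocorticoids, rose under exon 1 by 1.29 ± 0.15 (2.45-fold, adjusted p = 6.01e-06) and under exon 9 by 0.96 ± 0.15 (1.95-fold, adjusted p = 0.000541). Its arrays read 9.63, 9.95 and 10.17 in control, 10.55, 11.35 and 11.61 under exon 1 and 10.41, 10.96 and 11.12 under exon 9. Under exon 7 they read 9.68, 10.12 and 10.30, which overlapped control, and exon 7 was below exon 1 by 1.18 ± 0.15 (adjusted p = 2.85e-05) and below exon 9 by 0.85 ± 0.15 (adjusted p = 0.00235). A further pair of SGK1 probes gave 1.43 and 1.34 under exon 1. The medium held hydrocortisone in all groups. SGK3, a relative that binds PI3K lipids on endosomes, fell under exon 1 by 0.61 ± 0.14 (adjusted p = 0.00992), and its second probe by 0.75 ± 0.14 (adjusted p = 0.00139).

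Of the 6 other kept subunits of the mTOR complexes, MLST8 was called. MLST8, which binds the MTOR kinase domain in both complexes, fell under exon 1 by 0.79 ± 0.12 (1.73-fold, adjusted p = 0.0002). It read 9.86, 10.07 and 10.31 in control and 8.74, 9.36 and 9.75 under exon 1, with no overlap, as for 3.57% of kept probes. It read 9.66, 9.92 and 10.09 under exon 7 and 9.80, 9.97 and 10.18 under exon 9. Exon 1 was lower than exon 7 by -0.62 ± 0.12 (adjusted p = 0.0026) and than exon 9 by -0.70 ± 0.12 (adjusted p = 0.0011). The subunits MLST8 and MTOR were thus low under different siRNAs, exon 1 and exon 9. None of the 3 kept genes among TSC partners and RHEB genes was called. RHEBL1, a relative of RHEB, was above background on all 6 control arrays and on 2 of 6 under exon 9, so its level there is mostly a bound and no difference is given, and its adjusted p was 0.0940 (0.00519 with the replicate number in the fit).

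Amino acids reach mTORC1 through a set of lysosomal complexes, of which 26 genes were kept. Under exon 1, 7 of the 26 had an unadjusted p below 0.05, against 22.2% of all genes, and the list median was 0.02. Over all genes 4.32% were called higher and 4.1% lower there, and in this list 4 rose and none fell. They were SESN1, a leucine-sensor family member that p53 and FOXO factors induce (0.62 ± 0.17, with 4 of the 6 control arrays above background, adjusted p = 0.0265), CASTOR1, an arginine sensor (0.62 ± 0.19, adjusted p = 0.0471), LAMTOR3 of the Ragulator (0.27 ± 0.07, adjusted p = 0.0235) and SEC13 of the GATOR2 complex (0.26 ± 0.08, adjusted p = 0.0418). Second probes of LAMTOR3 and SEC13 gave 0.15 and 0.21 under exon 1 and were not called (adjusted p = 0.786 and 0.240). Sestrins, CASTOR1 and GATOR2 do not act in the same direction on mTORC1. None of the 26 passed under exon 7 or exon 9, where 3 and 2 had an unadjusted p below 0.05, against 11.3% and 14.9% of all genes. With the replicate number in the fit MIOS, a GATOR2 subunit, was lower under exon 1 (-0.22, adjusted p = 0.0215) and exon 9 (-0.23, adjusted p = 0.0251).

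Among 10 kept genes of AMPK and related stress inputs, 2 rose and 1 fell under exon 1 and none was called under exons 7 and 9. PRKAA1, a catalytic subunit of the energy sensor AMPK, rose by 0.40 ± 0.08 (adjusted p = 0.00273), and a second probe gave 0.18 (adjusted p = 0.443). CAB39, a partner of the AMPK kinase STK11, rose by 0.22 ± 0.07 (adjusted p = 0.0405), and PRKAG2, a regulatory subunit of AMPK, fell by 0.37 ± 0.10 (adjusted p = 0.0186). A second PRKAG2 probe gave -0.24 and was not called (adjusted p = 0.297). PRKAA1 under exon 1 was also above exon 7 by 0.46 ± 0.08 (adjusted p = 0.000679) and above exon 9 by 0.28 ± 0.08 (adjusted p = 0.0425). With the replicate number in the fit STRADA, another partner of STK11, was also higher under exon 1 (0.24, adjusted p = 0.0434).

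The substrates of mTORC1 and translation factors numbered 16, with 1 rise and 1 fall under exon 1 and no call under exons 7 and 9. EIF4EBP2, a repressor of cap-dependent translation, fell by 0.34 ± 0.08 (adjusted p = 0.0117). GRB10, an adaptor that mTORC1 stabilizes and that dampens insulin signalling, rose by 0.66 ± 0.16 (adjusted p = 0.0121), while its second probe gave -0.06 (adjusted p = 0.898), so the probes disagree. Under exon 9, where MTOR was low, the list had a median of -0.04, with 7 of 16 genes above 0. Of the 16, 5 had an unadjusted p below 0.05 there, against 14.9% of all genes. Under exons 1 and 7 that held for 4 and 1, against 22.2% and 11.3% of all genes. In the fit with the replicate number, GRB10 and LPIN1 were higher under exon 9 (0.52 and 0.22, adjusted p = 0.0170 and 0.0362) and the autophagy kinase ULK1 was higher under exon 1 (0.51, adjusted p = 0.000183).

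**Figure D3:**
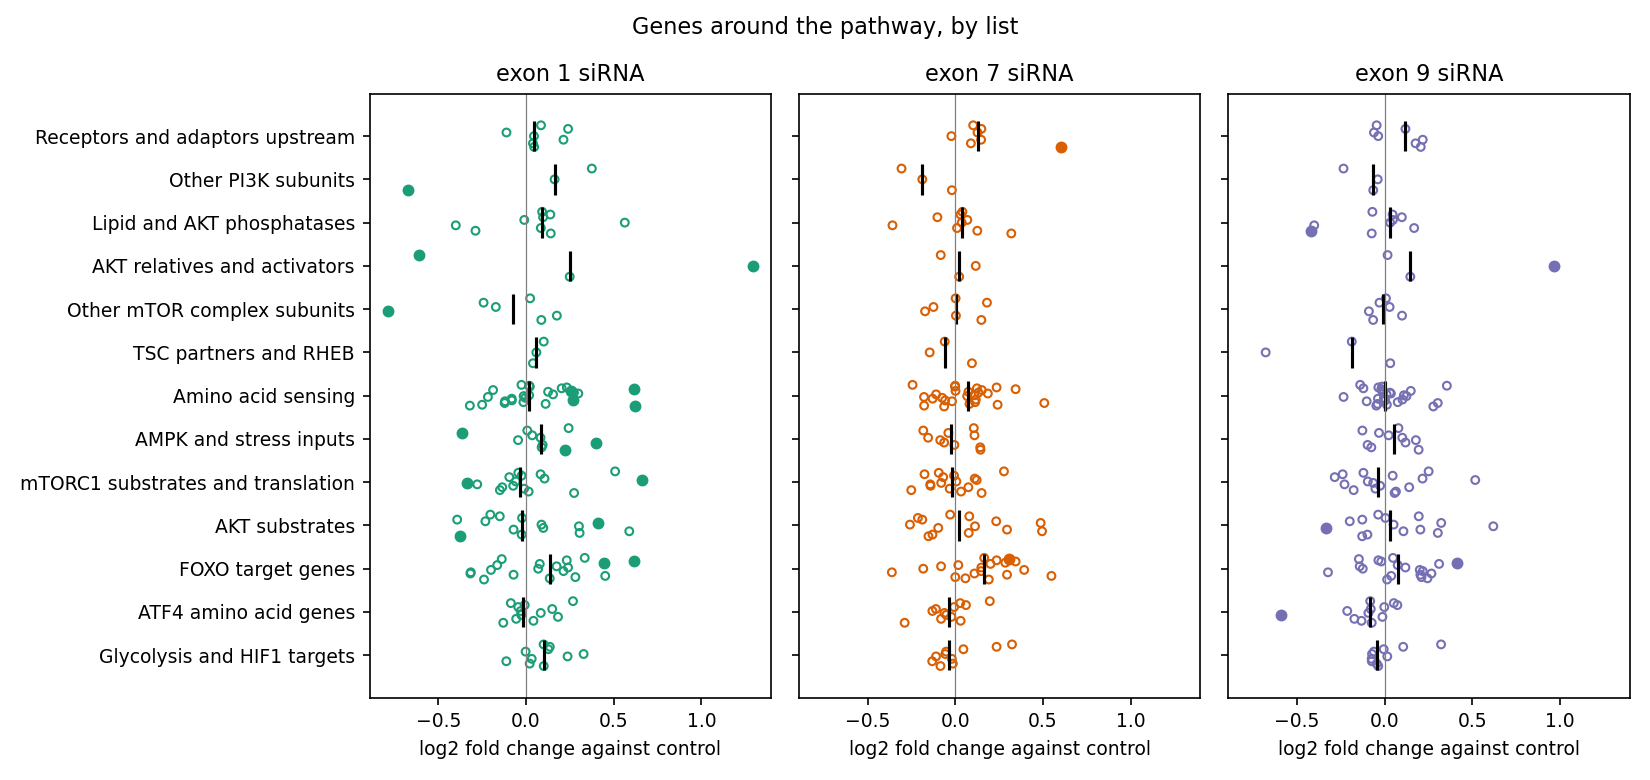
Log2 fold change against control (x axis) of every kept gene in the 13 lists around the pathway (y axis), by siRNA, with 1 point per gene, filled where the adjusted p was below 0.05. Black bars are list medians; the 3 panels hold 16, 2 and 5 called genes (SESN1 under exon 1 lies on 2 lists), and SGK1 is the point at 1.29 under exon 1 and at 0.96 under exon 9.

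AKT substrates held 14 kept genes. Under exon 7, where AKT1 was low, none was called, 7 lay above 0 and the median was 0.02. Of the 14, 4 had an unadjusted p below 0.05 there, against 11.3% of all genes. Under exons 1 and 9 that held for 5 genes each, against 22.2% and 14.9% of all genes. FOXO4, a FOXO factor that AKT keeps out of the nucleus, rose under exon 1 by 0.41 ± 0.12 (adjusted p = 0.0476) and differed under exon 7 by 0.49 (adjusted p = 0.0552, and 0.0103 with the replicate number in the fit). ACLY, which makes acetyl-CoA for lipid synthesis, fell under exon 1 by 0.37 ± 0.09 (adjusted p = 0.0134). A second ACLY probe gave -0.27 there and was not called (adjusted p = 0.256). CHUK, a kinase of the NF-kappa-B pathway, fell under exon 9 by 0.33 ± 0.07 (adjusted p = 0.0141), with 10.19, 10.29 and 10.35 in control and 9.74, 9.95 and 10.15 under exon 9. CDKN1A, the cell cycle inhibitor p21, differed by 0.59 under exon 1 and 0.49 under exon 7 (adjusted p = 0.0627 and 0.302, and 0.000246 and 0.00449 in the fit with the replicate number). FOXO1 was higher under exon 9 in that fit (0.62, adjusted p = 0.0210, against 0.238 without the replicate number).

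Of 21 genes that FOXO factors are known to induce, 19 were kept. Under exon 7, 15 of the 19 lay above 0, the median was 0.16 and 6 had an unadjusted p below 0.05, but 1 passed the test. Over all genes 49.1% lay above 0, the median was -0.003 and 11.3% had an unadjusted p below 0.05. The gene that passed was SOD2, the mitochondrial superoxide dismutase, which rose by 0.30 ± 0.07 (adjusted p = 0.0427), with 10.71, 10.88 and 11.05 in control and 11.10, 11.16 and 11.31 under exon 7. SOD2 under exon 7 was above exon 1 and exon 9 as well, by 0.44 ± 0.07 (adjusted p = 0.000455) and 0.45 ± 0.07 (adjusted p = 0.000954). A second SOD2 probe gave 0.25 against control under exon 7 and was not called (adjusted p = 0.343).

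The ubiquitin ligase gene FBXO32 differed under exon 7 by 0.39 ± 0.10 (adjusted p = 0.0522, and 0.00197 with the replicate number in the fit). CDKN1B, a brake on the cell cycle, differed by 0.29 (adjusted p = 0.246). Under exon 1 the FOXO list had 12 of 19 genes above 0, a median of 0.14 and 2 rises, and with the replicate number in the fit TXNIP was also higher (0.33, adjusted p = 0.0410) and CITED2 lower (-0.32, adjusted p = 0.0375). Under exon 9 it had 13 above 0, a median of 0.07 and 1 rise. PINK1, a mitochondrial quality-control kinase, was the gene called under exon 9 (0.42 ± 0.11, adjusted p = 0.0352) and rose under exon 1 too (0.44 ± 0.11, adjusted p = 0.0111), with 0.29 under exon 7 (adjusted p = 0.280). SESN1, counted above, was the other gene called under exon 1. Under exons 1 and 9, 3 and 4 of the 19 had an unadjusted p below 0.05, against 22.2% and 14.9% of all genes. The list was above the median of all genes under each of the 3 siRNAs, which share their control arrays. Its median, its genes above 0 and its unadjusted p below 0.05 were highest in value or number under exon 7, and its calls under exon 1. Whether the list differed between the siRNAs was not tested.

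mTORC1 also acts on metabolism through the factors ATF4 and HIF1. Of 12 kept ATF4 genes of amino acid and one-carbon metabolism, MTHFD2 fell under exon 9 by 0.59 ± 0.16 (adjusted p = 0.0414), with 11.17, 11.54 and 12.02 in control and 10.52, 10.89 and 11.52 under exon 9. The list median under exon 9 was -0.08, with 2 of 12 genes above 0, against 49.9% of all genes. Of the 12, 1 had an unadjusted p below 0.05 there, against 14.9% of all genes. In the exon 1 and exon 7 comparisons 5 and 4 of the 12 lay above 0, against 51.1% and 49.1% of all genes. Under exons 1 and 7 no ATF4 gene was called and the medians were -0.02 and -0.04, while with the replicate number in the fit TRIB3 was higher under exon 1 (0.27, adjusted p = 0.0287). None of 10 kept glycolysis and HIF1 genes was called under any siRNA. Under exons 1, 7 and 9, 2, 0 and 0 of them had an unadjusted p below 0.05, against 22.2%, 11.3% and 14.9% of all genes. With the replicate number in the fit PFKFB3 (0.24, adjusted p = 0.0144) and PFKFB4 (0.33, adjusted p = 0.0203) were higher under exon 1.

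Several of these calls lay near the threshold and were lost when 1 array was left out, for some of them nearly whichever array it was. The call was lost for SOD2 without any 1 of 10 of its 12 arrays (all but control replicate 4 and exon 7 replicate 3), with adjusted p from 0.0615 to 0.112. Likewise it was lost for CAB39 without any 1 of 10 of the 12 (adjusted p up to 0.105), for SEC13 without any of 9 (up to 0.110) and for CASTOR1 and FOXO4 without any of 8 (up to 0.133 and 0.125). LAMTOR3 missed the threshold without exon 1 replicate 1 or 2 or control replicate 3 or 6 (up to 0.0700), and SESN1 without exon 1 replicate 2 or 6 or control replicate 3 or 6 (up to 0.0795). For the 3 weaker genes under exon 9 the numbers were 9 for MTHFD2 (up to 0.112), 7 for INPP4B (up to 0.0770) and 6 for PINK1 (up to 0.0983). PRKAG2 had an adjusted p of 0.0508 when exon 1 replicate 1 was left out and of 0.0502 when control replicate 5 was. The calls of SGK1, MLST8, EGFR, PIK3CB, PRKAA1, SGK3, EIF4EBP2, GRB10, ACLY, CHUK and, under exon 1, PINK1 were kept whichever single array was left out. Of these, SGK3, ACLY and CHUK missed it without experiment 3 (adjusted p = 0.0564, 0.0715 and 0.0864), ACLY and CHUK in a fit of their 2 groups alone (adjusted p = 0.0563 and 0.0622), and EIF4EBP2 and CHUK under median scaling (adjusted p = 0.114 and 0.105). Among the 133 genes the first 12 columns alone gave 1 rise and 2 falls under exon 1 and no call under the other siRNAs, and the last 12 gave no call.

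Genes whose values followed AKT1 most closely were taken as the 5 with the highest Pearson correlation with its first probe over the 24 arrays. These were PCNP, a nuclear PEST-domain protein (r = 0.96), RPL22, a ribosomal protein (r = 0.91), SELENOT, a selenoprotein of the endoplasmic reticulum (r = 0.90), OAZ1, an inhibitor of polyamine synthesis (r = 0.90), and SEPHS1, of the selenophosphate synthetase family (r = 0.89). Their log2 differences from control under exon 7 were -0.56, -0.36, -0.96, -0.36 and -0.51, and under exon 1 and exon 9 they lay between -0.11 and 0.23. They were selected for this pattern, and the arrays share experiments and normalization, so the values carry no test.

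The 5 genes most like MTOR were TP53BP2, a p53-binding protein (r = 0.91), EXD2, an exonuclease (r = 0.90), PTTG1, the securin of chromosome separation (r = 0.90), TMEM109, a membrane protein (r = 0.90), and KIFAP3, an adaptor of a kinesin motor (r = 0.89). Under exon 9 they differed from control by -1.11, -0.22, -0.38, -0.65 and -0.85, and under exons 1 and 7 by between -0.04 and 0.13. None of these 10 genes was on the lists of the pathway.

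The differences within each experiment are given for the genes chosen for their likeness to AKT1 and MTOR, and that choice favours a like order of the experiments. Under exon 7 the smallest difference was in experiment 7 for all of AKT1, PCNP and SELENOT (-0.52, -0.12 and -0.26), and the most negative was in experiment 3 (-1.44, -0.81 and -1.58). In experiment 9 AKT1 differed by -1.13, second to experiment 3, whereas SELENOT differed by -0.71, less than in most others. Under exon 9 experiments 5 and 7 gave the smallest differences for MTOR (-0.63 and -0.41), TP53BP2 (-0.91 and -0.84) and, with experiment 11 between them, KIFAP3 (-0.49 and -0.63). Under exon 7 the array of experiment 7 lay in the earlier table columns and its control in the later ones. In experiment 3 this was reversed. Experiment 1 had the layout of experiment 7, yet AKT1 differed there by -1.003. Under exon 9 experiments 5 and 7 had that layout too. The most negative MTOR difference, -1.32 in experiment 1, had both arrays in the later columns. Whether the order of the experiments followed the table columns or transfection was not tested.

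**Figure D4:**
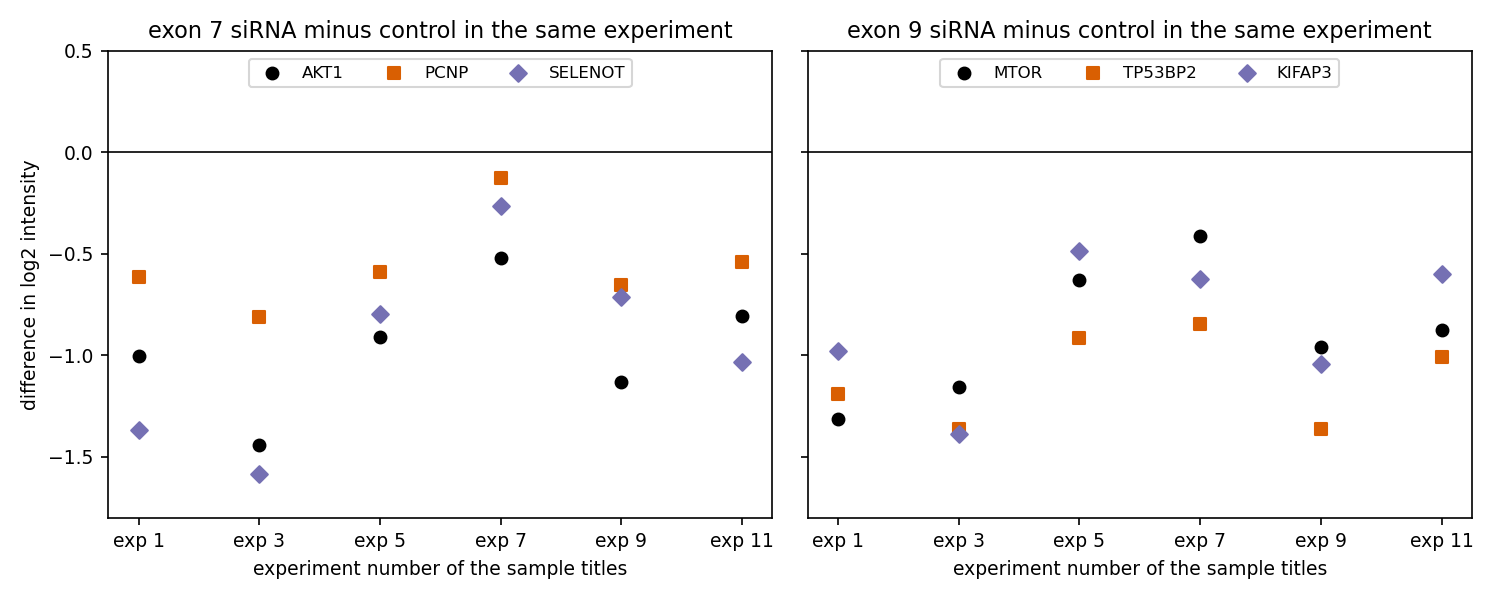
Difference in log2 intensity between the siRNA array and the control array of the same experiment (y axis) in each of the 6 experiments (x axis), for AKT1 with PCNP and SELENOT under exon 7 and for MTOR with TP53BP2 and KIFAP3 under exon 9, 1 point per gene and experiment. All points lie below 0, and in the exon 7 panel each gene lies closest to 0 in experiment 7 and lowest in experiment 3.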

How the data were processed

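The deposited non-normalized table and the authors' series matrix both hold log2 intensities per probe and array; the matrix values share 1 distribution (medians 7.56) and keep the rank order of the other table. The sources used here do not give the tools behind them. Groups came from the labels. The former were put back on the linear scale, corrected for background with limma 3.58.1 (R 4.3.3; normexp, offset 16) against 437 olfactory receptor probes in place of negative controls, quantile normalized and returned to log2. Probes with a surrogate detection p below 0.05 on at least 6 arrays were kept. A single gene symbol belonged to 30113 of 47231 probes, several to 8 and none to 17110.

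lmFit and eBayes fitted 1 mean per group over 24 arrays, and 6 two-sided comparisons were adjusted over 19372 probes by Benjamini-Hochberg at 0.05. The steps were tested on simulated data. The number of arrays limits the precision. The members and all lists were chosen with earlier results of these data known. Named were all members, up to 4 called genes of smallest adjusted p per list and comparison (21 genes), and the 5 genes most like AKT1 and MTOR; other genes of the lists were named after their values were seen. Replicate numbers pair arrays because the titles give arrays of the same number 1 experiment number; of 36 same-numbered pairs 23 correlated above 0.1 in their deviations from the group means (median 0.13, lowest -0.06, against -0.02 for different numbers). Alternatives were the replicate number or the first and last 12 table columns as a block, other background correction, scaling and filters, the authors' values, 1 probe per gene, 2 groups alone and single arrays left out.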

Additional observations from a re-analysis of the deposited data

Results flagged for a closer look

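Over the probes of the members and the named pathway genes, 124 groups of 6 arrays were examined for 1 array standing apart, by its gap to the nearest array as a share of the range of the group (Dixon's 95% critical value), and 5 passed, where chance gives about 1 in 20. AKT1 was low in exon 1 replicate 2 on its second probe, at 10.84 with the next array at 11.20 (0.753), a group that is otherwise level with control. TSC2 was low in the same array on its brighter probe, at 7.24 against 7.71 (0.740). The dimmer TSC2 probe was low in control replicate 6, at 5.63 against 5.99 (0.644), both below background. PRKAG2 was low in exon 9 replicate 4, at 9.48 against 9.71 (0.656), and MTHFD2 was high in exon 1 replicate 4, at 11.95 against 11.48 (0.701).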

How the results depend on the processing

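No difference of a member or named gene that was called changed sign under any alternative run, nor did those of AKT1 under exon 7 or MTOR under exon 9. The difference of the first AKT1 probe under exon 7 ran from -1.18 to -0.76 and that of MTOR under exon 9 from -1.02 to -0.76 over the settings that left out no single replicate, and over single arrays left out from -1.07 to -0.85 and from -0.96 to -0.83. Counts of called probes are given in the order exon 1, exon 7 and exon 9 against control, then exon 1 against exon 7, exon 1 against exon 9 and exon 7 against exon 9. They were 1350, 228, 454, 1538, 1071 and 520. With the replicate block they were 2462, 585, 1118, 2719, 2188 and 1157, and with replicate number and table columns together 3189, 885, 1560, 3511, 2918 and 1650. Each pair of groups alone gave 765, 103, 262, 983, 647 and 311, the first 12 columns 309, 15, 43, 364, 198 and 12, and the last 12 gave 85, 13, 39, 72, 36 and 20, with fewer arrays. Without experiment 3, an alternative chosen after seeing the data like that of both blocks, they were 883, 124, 265, 883, 699 and 244. Median scaling gave 124 and 266 for exon 7 and exon 9 against control, and 683 and 295 for exon 9 against exon 1 and exon 7. It moved the share of higher calls from 61.0% to 47.6% for exon 7 against control, from 49.0% to 69.6% for exon 1 against exon 7 and from 52.7% to 26.4% for exon 7 against exon 9; the cause was not tested. Single arrays left out gave 955 to 1619, 136 to 234, 318 to 420, 1050 to 1866, 711 to 1312 and 316 to 479. A chip block was not run, since no chip is named. Members at background (AKT2, RICTOR and most values of the dimmer TSC2 and RPTOR probes) have no measured level.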
